A study of Mus musculus with 797 samples.

Results

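Arpp21, Phactr1 and Foxp1 are 3 of the 32285 genes counted in nuclei sorted from mouse brain. They were chosen by name, with their levels in these nuclei already known, as genes that striatal spiny projection neurons and cortical excitatory neurons are both known for. All their levels, differences and correlations below are therefore descriptions, with no test. The samples were C57Bl/6J mouse nuclei, all labelled striatum and sorted for yellow fluorescence. The mice had received an adeno-associated virus in the brain-penetrating capsid PHP.eB, at a dose of 5e11 vector genomes for a mouse, 3 to 4 weeks before the nuclei were sorted. The virus carried H2B-SYFP2, a histone fusion of a yellow fluorescent protein, so the nuclei studied are those in which that vector was active and not a random sample of the tissue.

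The 797 nuclei fell under 20 vector labels of 39 or 40 nuclei each, which by the labels differ in the regulatory element that drives H2B-SYFP2. The elements with the AiE name are AiE0078h, AiE0140h, AiE0387m, AiE0390m, AiE0391h, AiE0401h, AiE0410m, AiE0445h_3xC2, AiE0447h, AiE0450h, AiE0452h, AiE0475m, AiE0600m, AiE0682h, AiE0743m_3xC2 and AiE0779m. CMV and hSyn1 are promoters in common use in viral vectors, and hI56i and DLX2.0 are enhancers used to reach GABAergic interneurons. The labels name no animal, so each vector label counts as 1 sample and no p-value was made from nuclei. SDs below are over nuclei, and intervals cover counting error only.

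Arpp21 encodes a cyclic AMP-regulated phosphoprotein that binds RNA through an R3H domain, and its short isoform is a phosphorylation target of protein kinase A in striatal neurons that receive dopamine. Phactr1 encodes a protein that binds actin and protein phosphatase 1. Foxp1 encodes a forkhead transcription factor known for its part in the development of striatal spiny neurons and of cortical projection neurons. An intron of Arpp21 holds the gene of a microRNA, miR-128, whose other copy lies in an intron of R3hdm1, a gene related to Arpp21 by its R3H domain. A mature microRNA pairs with target messenger RNAs through its seed, bases 2 to 8, and lowers their level or translation.

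On mm10, Arpp21 (ENSMUSG00000032503) lies on the minus strand at chr9:112065091-112235938. Phactr1 (ENSMUSG00000054728) lies on the plus strand at chr13:42680623-43138526, and Foxp1 (ENSMUSG00000030067) on the minus strand at chr6:98925338-99522721. The genes span 171, 458 and 597 kb, of which annotated exons cover 17.4, 9.61 and 13.8 kb. Other genes with count rows overlap all of them: 2 on the opposite strand of Arpp21, 3 at Phactr1 and 1 at Foxp1. The reads of these overlapping genes came to 3.15% of the reads of Arpp21, 2.95% of those of Phactr1 and 0.167% of those of Foxp1. Whether strand was used in counting is not given in the sources used here, so reads of such overlapping genes cannot be told apart.

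The microRNA sequences are shown because the closest relative of Arpp21 in the excitatory nuclei proved to be R3hdm1, the host of the other copy. They come from RefSeq on GRCm38.p6, 5′ to 3′. In the mature form the capitals mark the seed, and in the hairpins they mark the mature 3p form. Mir128-2 lies at chr9:112118636-112118711 on the minus strand, the strand of Arpp21, and Mir128-1 at chr1:128202361-128202430 on the plus strand, the strand of R3hdm1. Both hairpins fall in introns.
mmu-miR-128-3p: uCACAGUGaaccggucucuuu
Mir128-2 hairpin, in Arpp21: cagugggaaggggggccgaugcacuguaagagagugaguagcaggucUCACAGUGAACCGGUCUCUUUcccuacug
Mir128-1 hairpin, in R3hdm1: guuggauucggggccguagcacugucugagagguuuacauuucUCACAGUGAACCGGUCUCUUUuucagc
The 2 genes yield the same mature 3p sequence and so share its seed. The microRNA itself has no row in the counts, and the polyA-based libraries do not measure it.

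The 3 genes were higher together in 1 neuron class, so their start regions are also of interest. RefSeq gives 9 start sites for Arpp21, 3 for Phactr1 and 3 for Foxp1, numbered here in the direction of transcription. Of the 250 bases before each start, the stretch outside annotated exons is printed for start 3 of Arpp21 (minus strand, chr9:112217352-112217601), start 2 of Phactr1 (plus strand, chr13:42865997-42866246) and start 3 of Foxp1 (minus strand, chr6:99028314-99028548). Capitals mark GC boxes, GGGCGG on either strand.
Arpp21 start 3: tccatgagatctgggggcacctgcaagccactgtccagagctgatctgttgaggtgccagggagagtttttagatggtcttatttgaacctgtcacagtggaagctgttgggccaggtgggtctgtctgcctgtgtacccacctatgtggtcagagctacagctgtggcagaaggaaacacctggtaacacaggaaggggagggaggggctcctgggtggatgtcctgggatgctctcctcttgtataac
Phactr1 start 2: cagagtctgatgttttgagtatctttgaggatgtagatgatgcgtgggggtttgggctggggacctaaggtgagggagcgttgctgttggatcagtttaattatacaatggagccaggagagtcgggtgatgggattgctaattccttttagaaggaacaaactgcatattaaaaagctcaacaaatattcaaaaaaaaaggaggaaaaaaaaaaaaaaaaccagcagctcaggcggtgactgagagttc
Foxp1 start 3: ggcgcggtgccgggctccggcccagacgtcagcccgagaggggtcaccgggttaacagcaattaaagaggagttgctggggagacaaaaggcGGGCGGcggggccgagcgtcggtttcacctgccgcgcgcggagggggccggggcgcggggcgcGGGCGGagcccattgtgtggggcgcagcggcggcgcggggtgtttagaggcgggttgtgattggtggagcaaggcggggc
The Foxp1 stretch holds 2 GC boxes and 30 CpG dinucleotides at a G and C content of 72.8%, against 4 CpG at 42.0% in the Phactr1 stretch and 0 CpG at 54.8% in the Arpp21 stretch. The median G and C content of all 32851 RefSeq start windows of 250 bases was 52.4%, and 32.7% of them held a GC box. The Foxp1 stretch is shorter than these, at 235 bases with 15 exon bases left out. Its full window of 250 bases held 3 GC boxes and 34 CpG at 74%. The E-box CAGATG, found in 14.4% of all windows, was searched on both strands and was in none of the 3 printed stretches. Neither were the forkhead-type motif ATAAACA, in 4.16% of windows, its variant GTAAACA, in 3.17%, and the TATA motif TATAAA, in 12.4%. Among the other start windows, CAGATG was in 2 of Arpp21, TATAAA in 1 of Phactr1 and the forkhead-type motif ATAAACA in 2 of Foxp1. A GC box was also in start 1 of Foxp1. The contrast in CpG depends on the starts printed. Foxp1 starts 1 and 2 held 11 and 3 CpG at 60.8% and 45.2% G and C. Phactr1 starts 1 and 3 held 5 and 6 CpG, and Arpp21 start 8 held 10.

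The nuclei held 8712 to 666436 gene reads each, with a median of 290674, and 781 of the 797 passed the limits of 50000 reads and 1000 genes. A nucleus was called glutamatergic when Slc17a7, which loads glutamate into synaptic vesicles in cortical excitatory neurons, reached 10 CPM (counts per 1e6 gene reads) and Gad1 plus Gad2, the enzymes that make GABA, did not. It was called GABAergic in the reverse case. This gave 385 glutamatergic and 310 GABAergic nuclei, with 50 positive for both, 23 for neither and 13 marked by glial genes. Near the limit, 10 nuclei had between 5 and 20 CPM of Slc17a7 and 4 had between 5 and 20 CPM of Gad1 plus Gad2. The highest of Cux2, Rorb and Foxp2 at 10 CPM or more split the glutamatergic nuclei into ranges of 75, 75 and 50 nuclei, with 185 unsplit. Pvalb, Sst and Adarb2 split the GABAergic nuclei into 137, 104 and 52, with 17 unsplit. These are ranges of marker level and not proven types.

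The tissue label was checked against markers of striatal spiny projection neurons. Adora2a and Isl1 had no read in any of the 781 nuclei, which by the limit of 3 nuclei allows a share of nuclei with a read of up to 0.384%, and Drd2 was read in 0.640%. Drd1 was read in 6.02%, Ppp1r1b in 9.86% and Tac1 in 12.2% of nuclei. By contrast Slc17a7, which striatal projection neurons lack, was read in 56.7%. Spiny projection neurons make GABA, and among the 310 GABAergic nuclei Ppp1r1b was read in 0.323%, Drd1 in 8.39% and Tac1 in 26.8%. The striatal side of these genes' expression could therefore not be described here, and the values below are for nuclei with the transmitter genes of cortical excitatory neurons and for GABAergic nuclei that mostly carry interneuron markers. The libraries came in 3 sets by the prefix of the library name, here A, B and C, with 516, 178 and 87 kept nuclei. Mitochondrial genes took a mean of 1.17% of reads in set B, against 0.0161% in set A and 0.0144% in set C, and all 13 glia-marked nuclei were in set B.

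All 3 genes were higher in glutamatergic than in GABAergic nuclei. Arpp21, the RNA-binding phosphoprotein, came close to an on and off pattern: mean log2(CPM+1) was 9.73 ± 2.07 in glutamatergic nuclei (SD, n = 385) and 1.17 ± 2.81 in GABAergic nuclei (SD, n = 310). Foxp1, the forkhead factor, averaged 5.80 ± 3.19 in glutamatergic nuclei and 1.89 ± 2.83 in GABAergic nuclei. Phactr1, the actin and phosphatase binder, averaged 7.66 ± 3.20 in glutamatergic nuclei and 4.37 ± 3.99 in GABAergic nuclei, and so stayed well represented in both classes.

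The differences of these means were 8.56 for Arpp21, 3.91 for Foxp1 and 3.29 for Phactr1 on the log2(CPM+1) scale. Of 6930 genes with a read in at least 20% of the nuclei of either class, 9.18% were higher in glutamatergic nuclei by over 1, and all 3 genes were past that limit. Since they were chosen with this contrast known, nothing is read from that count. Arpp21 ranked 2nd, Foxp1 31st and Phactr1 60th among the 6930 differences; the first was Slc17a7, which defines the class.

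**Figure D1:**
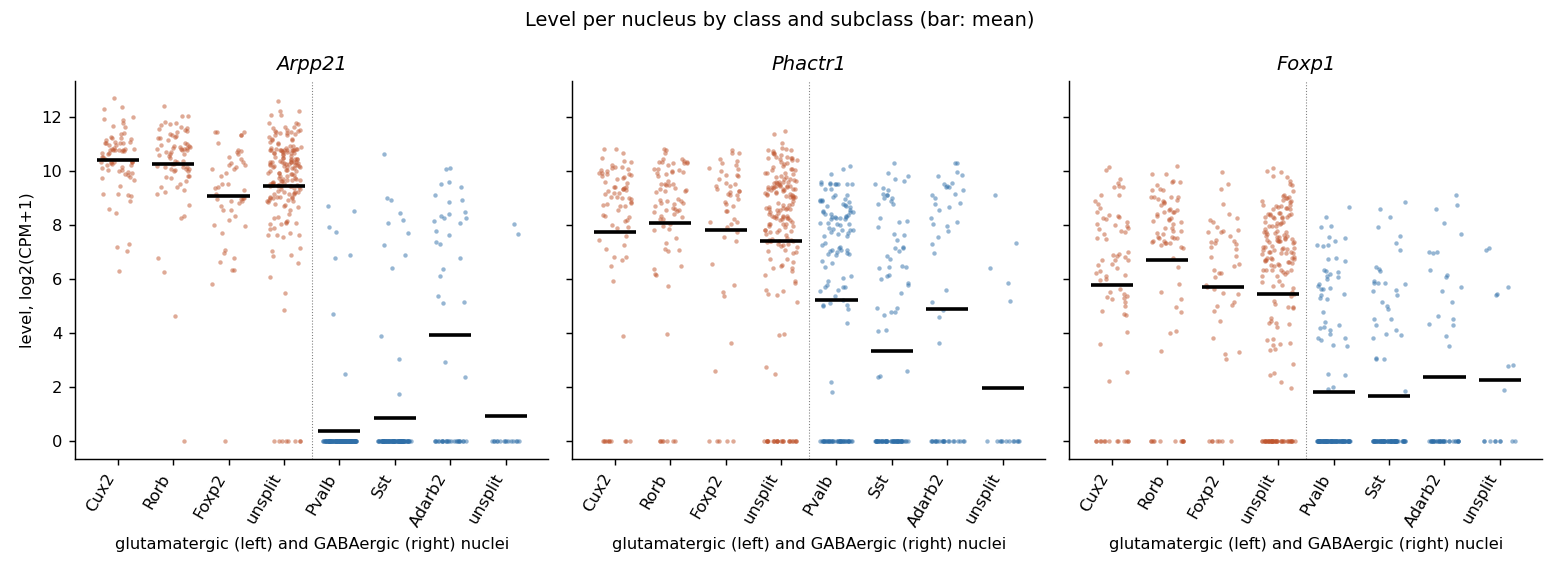
Level of Arpp21, Phactr1 and Foxp1 in log2(CPM+1) (y axis) in each nucleus (points), by subclass (x axis), with glutamatergic subclasses in orange on the left, GABAergic subclasses in blue on the right and the mean as a black bar. Arpp21 forms 1 high band in the glutamatergic nuclei and lies at 0 in most GABAergic nuclei outside the Adarb2 group, whereas Phactr1 and Foxp1 split into a band with reads and a band at 0 in every subclass.

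The share of nuclei with at least 1 read gave the same order. Arpp21 was read in 375 of 385 glutamatergic nuclei, or 97.4% (95% exact interval 95.3% to 98.7%), and in 50 of 310 GABAergic nuclei, or 16.1% (12.2% to 20.7%). Foxp1 was read in 81.3% (77.0% to 85.1%) of glutamatergic and 33.9% (28.6% to 39.4%) of GABAergic nuclei. Phactr1 was read in 87.8% (84.1% to 90.9%) of glutamatergic and 57.7% (52.0% to 63.3%) of GABAergic nuclei. These intervals cover counting error over nuclei only, and the genes were chosen with this contrast known, so nothing is read from their overlap. The 13 glia-marked nuclei reached the limit for neither class, and whether they held neuronal material was not tested. Among them Arpp21 was read in 23.1% (5.04% to 53.8%), Phactr1 in 30.8% (9.09% to 61.4%) and Foxp1 in 23.1% (5.04% to 53.8%). The GABAergic shares of all 3 genes lie within those wide intervals. By share alone, the whole class could thus not be told from these 13 nuclei. With reads pooled, Phactr1 had 196 CPM in GABAergic and 30.6 CPM in glia-marked nuclei, and Arpp21 48.1 and 22.4 CPM. Foxp1 went the other way, at 32.8 and 92.2 CPM. In the GABAergic nuclei of set B, Phactr1 was read in 72.4% (59.1% to 83.3%), Arpp21 in 12.1% and Foxp1 in 37.9%. Pooled levels in these set B nuclei were 149 CPM for Phactr1, 8.4 CPM for Arpp21 and 43.8 CPM for Foxp1. Median depth was 279379 reads in glutamatergic, 318172 in GABAergic and 466317 in glia-marked nuclei. With every nucleus thinned to 100000 reads the shares were 97.4% and 15.8% for Arpp21, 86.7% and 56.5% for Phactr1 and 78.6% and 30% for Foxp1, in glutamatergic and GABAergic nuclei in that order.

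Both parts of the distribution differed between the classes. Among nuclei with a read, the median level of Arpp21 was 10.24 in glutamatergic and 7.84 in GABAergic nuclei. That of Phactr1 was 9.04 in glutamatergic and 8.02 in GABAergic nuclei, and that of Foxp1 was 7.41 in glutamatergic and 5.67 in GABAergic nuclei. For Phactr1 the gap among nuclei with a read was thus the smallest of the 3.

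Pooling the reads of a class gives levels that can be set beside each other per length. Arpp21 had 1357 CPM in the pooled glutamatergic reads (exact Poisson interval 1350 to 1364) and 48.1 CPM in the pooled GABAergic reads (46.7 to 49.4). Phactr1 had 543 CPM in glutamatergic and 196 CPM in GABAergic reads, and Foxp1 197 CPM in glutamatergic and 32.8 CPM in GABAergic reads. Per kb of annotated exon, the glutamatergic levels were 77.9 CPM for Arpp21, 56.5 for Phactr1 and 14.3 for Foxp1. In GABAergic reads Phactr1 led with 20.4 CPM per exon kb, ahead of Arpp21 at 2.76 and Foxp1 at 2.38. Per kb of the whole gene the order was the same in both classes.

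Within the glutamatergic class Arpp21 ordered the subclasses Cux2, Rorb, unsplit and Foxp2, with means of 10.38 ± 1.18, 10.24 ± 1.74, 9.43 ± 2.38 and 9.07 ± 1.97. Cux2 marks upper cortical layers, Rorb layer 4 and neighbouring layers, and Foxp2 deep layers. All 75 Cux2 nuclei had a read of Arpp21, as did 74 of 75 Rorb and 49 of 50 Foxp2 nuclei, so what varied among them was the level. The 10th percentile was 9.09 in Cux2, 9.16 in Rorb and 6.76 in Foxp2 nuclei, and the medians were 10.63, 10.61 and 9.32. In the plot of levels by subclass the Foxp2 nuclei accordingly reach lower than the Cux2 nuclei. The Cux2 nuclei stood 0.81 above and the Foxp2 nuclei 0.76 below the other glutamatergic nuclei. No gap between neighbours in this order exceeded the larger SD of the pair. The order was kept in set A only. In set B the Rorb mean of 10.35 lay above the Cux2 mean of 10.01. In set C the Foxp2 mean of 9.79, over 5 nuclei, lay above the unsplit mean of 9.56.

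Phactr1 varied least among glutamatergic subclasses, with means of 8.06 ± 2.91 in Rorb, 7.80 ± 3.12 in Foxp2, 7.75 ± 3.29 in Cux2 and 7.42 ± 3.30 in unsplit nuclei. Foxp1 was highest in Rorb nuclei at 6.71 ± 3.11, followed by 5.78 ± 3.12 in Cux2, 5.71 ± 2.80 in Foxp2 and 5.45 ± 3.30 in unsplit nuclei. Foxp1 pooled to 291 CPM in Rorb nuclei (284 to 298), against 196 CPM in Cux2, 158 CPM in Foxp2 and 171 CPM in unsplit nuclei. The share with a read of Foxp1 was 85.3% in Rorb nuclei and 80.3% in the other glutamatergic nuclei, so the Rorb difference of 1.14 lay mainly in the level of nuclei with reads, where the median was 8.13 in Rorb against 6.90 in Cux2 and 6.85 in Foxp2 nuclei. The Rorb mean of Foxp1 was 6.36 in set A, 7.67 in set B and 5.80 in set C, the highest of the 3 named subclasses in each set.

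Past a difference of 1 from the other glutamatergic nuclei stood 0 of the 3 genes in Cux2 nuclei, where 5.9% of all genes did in either direction, 1 of 3 in Rorb nuclei, where 3.53% of genes were higher by that much, and 0 of 3 in Foxp2 nuclei, where 13.9% of genes did in either direction. The Rorb difference of Foxp1 was under that limit without set B, at 0.84, in set A alone, at 0.94, with a pseudocount of 10, at 0.90, and as a log2 ratio of mean CPM, at 0.72. The Foxp2 difference of Arpp21 was past it without set A, at −1.13.

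Among GABAergic nuclei Arpp21 was a gene of the Adarb2 group, interneurons of a mainly caudal ganglionic eminence origin. Its mean was 3.92 ± 4.06 in Adarb2 nuclei (n = 52), against 0.92 ± 2.61 in unsplit, 0.87 ± 2.47 in Sst and 0.39 ± 1.65 in Pvalb nuclei. It was read in 27 of 52 Adarb2 nuclei, or 51.9% (37.6% to 66.0%), in 12.5% (6.83% to 20.4%) of Sst nuclei and in 5.84% (2.55% to 11.2%) of Pvalb nuclei. The difference of Adarb2 from the other GABAergic nuclei was 3.30, the 31st highest of 6798 genes, of which 4.59% were higher by over 1. Where Adarb2 nuclei had a read, the median level was 8.14, below the glutamatergic median of 10.24. The Adarb2 share lay within the interval of the glia-marked nuclei and above the share of Pvalb nuclei, at like depth. Pvalb nuclei stood 1.40 below the other GABAergic nuclei, with 3.98% of genes lower by over 1; this difference was −0.90 without set A and −0.82 with a pseudocount of 10.

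The Adarb2 share of Arpp21 was 54.1% of 37 nuclei in set A, 62.5% of 8 in set B and 28.6% of 7 in set C. The level differed more between sets: pooled Arpp21 was 222 CPM in set A (214 to 231), 17.4 CPM in set B (13.01 to 22.7) and 93.5 CPM in set C (79.2 to 109.6), and the median with a read was 8.27 in set A, 5.15 in set B and 8.38 in the 2 nuclei of set C. The level of 8.14 thus rests mainly on the 20 nuclei with a read in set A. The 52 Adarb2 nuclei were also split by Vip, Lamp5, Cck, Npy, Calb2 and Reln, chosen after these values were seen. The groups are small and their intervals wide, so differences in share could not be resolved. Arpp21 was read in 46.7% (21.3% to 73.4%) of the 15 nuclei with Vip, in 48.4% (30.2% to 66.9%) of the 31 with Lamp5 and in 61.9% (38.4% to 81.9%) of the 21 with Cck, each at 10 CPM or more. For nuclei under that level, the shares were 54.1% for Vip, 57.1% for Lamp5 and 45.2% for Cck, all within the intervals of the nuclei over it. For Calb2 the share was 28.6% (3.67% to 71.0%) of the 7 nuclei with it and 55.6% of the 45 under that level. For Npy it was 53.5% of 43 and 44.4% of 9, and for Reln 57.1% of 21 and 48.4% of 31, in the same order.

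Phactr1 had another order, which depended on the measure. Its mean was 5.24 ± 3.80 in Pvalb nuclei and 4.90 ± 4.29 in Adarb2 nuclei, against 3.34 ± 3.83 in Sst and 1.99 ± 3.27 in unsplit nuclei. With reads pooled, Adarb2 nuclei came first, at 296 CPM (287 to 304), against 219 CPM (215 to 223) in Pvalb and 142 CPM in Sst nuclei. The median with a read was 8.79 in Adarb2 and 8.02 in Pvalb nuclei. The Pvalb mean was ahead in sets A and B, and the Adarb2 mean in set C, at 6.69 over 7 nuclei. The shares with a read were 68.6% (60.1% to 76.3%) in Pvalb, 59.6% (45.1% to 73.0%) in Adarb2 and 47.1% (37.3% to 57.1%) in Sst nuclei. The Sst share differed between sets, at 40.9% of 66 nuclei in set A, 76% of 25 in set B and 23.1% of 13 in set C. It was the lowest of the named subclasses in sets A and C but not in set B. There, Pvalb nuclei had 72.7% and Adarb2 nuclei 75%. Pvalb nuclei stood 1.57 above the other GABAergic nuclei, where 14.2% of genes were higher by over 1, and Sst nuclei 1.55 below, where 6.19% of genes were lower by over 1. Pvalb nuclei also had more genes with a read, a median of 3366 against 2829.5 in Sst and 2474 in Adarb2 nuclei at like read depths of 318350, 314570 and 332812, and the part of this in the Phactr1 values was not tested. As a log2 ratio of mean CPM the Pvalb difference was 0.31 and the Sst difference −0.68, and with a pseudocount of 10 they were 0.92 and −0.99.

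Within the Adarb2 group Phactr1 was read in 23 of the 31 nuclei with Lamp5, or 74.2% (55.4% to 88.1%), and in 8 of the 21 under that level, or 38.1% (18.1% to 61.6%). It was read in 42.9% (21.8% to 66.0%) of the nuclei with Cck and 71.0% (52.0% to 85.8%) of those under that level. These intervals overlap, and the split was chosen after the values were seen. Foxp1 differed little among GABAergic subclasses, with means of 2.37 ± 3.20 in Adarb2, 2.26 ± 2.81 in unsplit, 1.81 ± 2.77 in Pvalb and 1.69 ± 2.72 in Sst nuclei and shares of 30.8% to 47.1%.

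The 50 nuclei positive for both transmitter marker sets lay between the classes in the share with a read. In these nuclei Arpp21 was read in 50.0% (35.5% to 64.5%), Phactr1 in 74.0% (59.7% to 85.4%) and Foxp1 in 58.0% (43.2% to 71.8%). Where Arpp21 was read in them, its median of 9.50 was closer to the glutamatergic than to the GABAergic value. Each library was made from 1 sorted nucleus, and whether some of these 50 held material of 2 nuclei was not tested.

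The vector label was the study's own variable. In 12 labels at least 5 nuclei of both classes were present, and in 12 of 12 each of the genes was higher in the glutamatergic nuclei. For Arpp21 the difference of means was 6.48 to 10.57, with a median of 8.59. The lowest value was in AiE0390m, where Arpp21 averaged 8.48 in 12 glutamatergic and 2.004 in 25 GABAergic nuclei, and the highest in hSyn1, with 10.57 in 19 glutamatergic and 0 in 17 GABAergic nuclei. By the limit of 3 nuclei, a count of 0 of 17 allows a share of nuclei with a read of up to 17.6%. For Foxp1 the difference was 2.37 to 4.69, with a median of 3.73, the lowest in AiE0391h and the highest in AiE0390m.

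For Phactr1 the differences ran from 0.65 to 4.52, with a median of 3.07. The lowest was in AiE0682h, where 4 of 7 glutamatergic nuclei had a read and the mean was 4.48 ± 4.58, against 3.83 ± 4.04 in 26 GABAergic nuclei. The highest was in DLX2.0, at 9.23 ± 0.81 in 8 glutamatergic and 4.71 ± 3.93 in 27 GABAergic nuclei. Labels with few glutamatergic nuclei thus lay at both ends.

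**Figure D2:**
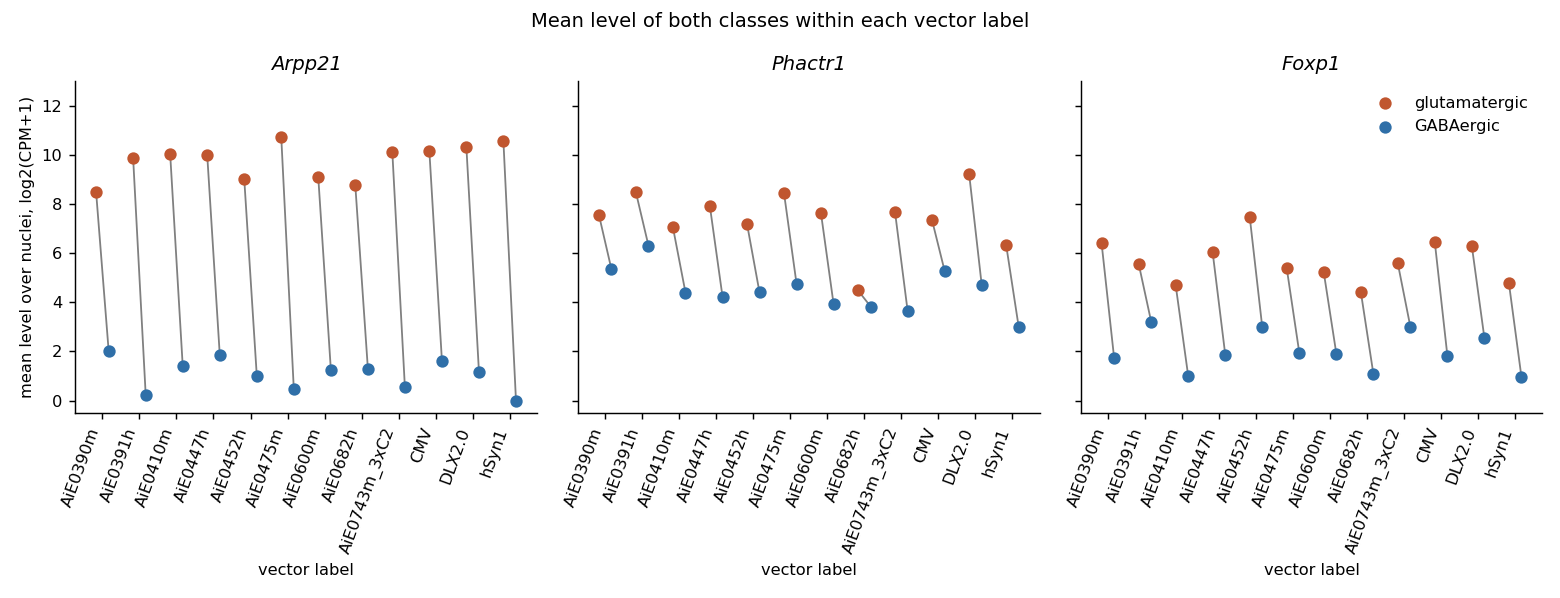
Mean log2(CPM+1) (y axis) of Arpp21, Phactr1 and Foxp1 in the glutamatergic (orange, left of each pair) and GABAergic nuclei (blue, right) of the 12 vector labels with at least 5 nuclei of both classes (x axis). In every label the orange point lies above the blue one, by 6.48 to 10.57 for Arpp21, 0.65 to 4.52 for Phactr1 and 2.37 to 4.69 for Foxp1.

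Over the 18 labels with at least 5 glutamatergic nuclei, mean Arpp21 lay between 8.48 (AiE0390m) and 10.74 (AiE0475m), with an SD of label means of 0.62. Mean Phactr1 lay between 4.48 (AiE0682h) and 9.23 (DLX2.0), with an SD of label means of 1.02. Mean Foxp1 lay between 4.44 (AiE0682h) and 7.49 (AiE0452h), with an SD of label means of 0.75. AiE0682h and AiE0452h held 7 glutamatergic nuclei each.

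Among the labels with over 30 glutamatergic nuclei, AiE0078h had the lowest Phactr1, at 6.82 ± 3.44 over 36 nuclei, and AiE0445h_3xC2 the highest, at 8.34 ± 2.35 over 36. Foxp1 in these labels lay between 5.41 in AiE0140h and AiE0779m and 6.34 in AiE0387m, and Arpp21 between 9.19 in AiE0445h_3xC2 and 9.96 in AiE0779m.

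For the 14 labels with at least 5 GABAergic nuclei, Arpp21 lay between 0 (hSyn1) and 2.004 (AiE0390m), Phactr1 between 2.99 (hSyn1) and 6.31 (AiE0391h) and Foxp1 between 0.96 (hSyn1) and 3.21 (AiE0391h). In AiE0391h, 10 of 11 GABAergic nuclei had a read of Phactr1. The hI56i label, with 34 GABAergic nuclei the largest such group, averaged 1.19 for Arpp21, 4.30 for Phactr1 and 1.33 for Foxp1, and DLX2.0 1.17, 4.71 and 2.54 over 27 nuclei. The hSyn1 GABAergic nuclei were thus the lowest for each of the 3 genes, where the SD of label means was 0.61 for Arpp21, 0.84 for Phactr1 and 0.75 for Foxp1. Of these 17 nuclei, 0 were in set A, 5 in set B and 12 in set C, and 12 were Sst nuclei, so vector, set and subclass cannot be told apart in this value. The mix of subclasses also differs between the other labels, and its part in their values was not tested.

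Within library sets the class difference was as large. Arpp21 averaged 9.71, 9.53 and 10.26 in glutamatergic nuclei of sets A, B and C, and 1.43, 0.58 and 0.51 in GABAergic nuclei of the same sets. Phactr1 averaged 7.54, 8.28 and 6.94 in glutamatergic and 4.32, 4.82 and 3.88 in GABAergic nuclei. Foxp1 averaged 5.57, 6.56 and 5.35 in glutamatergic and 1.81, 2.24 and 1.78 in GABAergic nuclei. Phactr1 and Foxp1 had their highest mean in set B in both classes, the set with the higher mitochondrial share.

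The 3 genes were read together in most excitatory nuclei and seldom in GABAergic ones. All 3 had a read in 274 of 385 glutamatergic nuclei, or 71.2% (66.4% to 75.6%), and in 8 of 310 GABAergic nuclei, or 2.58% (1.12% to 5.02%). No read of any of them was found in 1 glutamatergic nucleus and in 70 GABAergic nuclei, or 22.6% (18.05% to 27.6%). Phactr1 alone was the most frequent state of GABAergic nuclei, at 32.3% (27.1% to 37.8%), followed by none of them and by Phactr1 with Foxp1 at 17.4%. In each class these joint shares were close to the product of the separate shares, which was 69.5% for all 3 in glutamatergic and 3.15% in GABAergic nuclei.

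**Figure D3:**
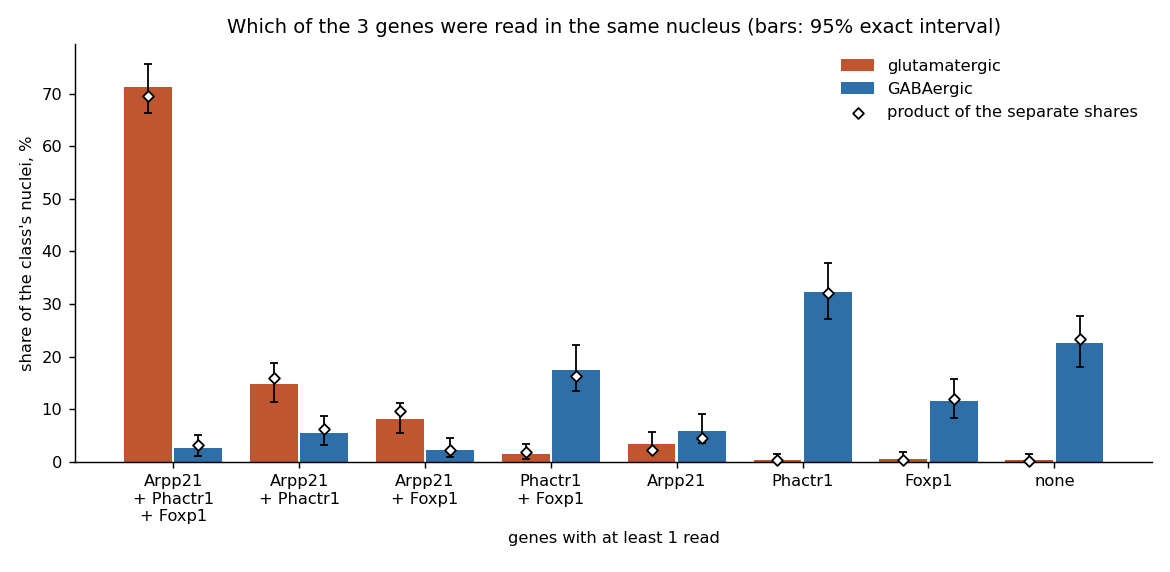
Share of the nuclei of a class in percent (y axis) with at least 1 read of each combination of Arpp21, Phactr1 and Foxp1 (x axis), for glutamatergic (orange) and GABAergic nuclei (blue), with 95% exact intervals; diamonds give the product of the separate shares. All 3 genes were read in 71.2% of glutamatergic and 2.58% of GABAergic nuclei, and the diamonds lie within the intervals.

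Across all 781 nuclei the genes rose and fell together. Pearson's r of log2(CPM+1) was 0.45 for Arpp21 with Foxp1, 0.36 for Arpp21 with Phactr1 and 0.27 for Phactr1 with Foxp1, with Spearman's rho of 0.43, 0.39 and 0.28. Within the glutamatergic nuclei the same pairs gave −0.07, 0.08 and 0.11, and within the GABAergic nuclei 0.02, −0.05 and 0.05. The nuclei share library chemistry and depth, and correlations this weak in sparse counts are no finding. Outside the 2 classes Arpp21 with Foxp1 gave 0.44 in the 50 nuclei positive for both marker sets and 0.42 in the 23 positive for neither, Arpp21 with Phactr1 0.13 and 0.36, and Phactr1 with Foxp1 0.14 and 0.14 in the same groups.

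The gene most like each of the 3 across all nuclei was Slc17a7, the class marker, with r of 0.80 for Arpp21, 0.50 for Foxp1 and 0.40 for Phactr1. For Arpp21 the next were Pcsk2, a prohormone protease, at 0.65, Nrgn, a calmodulin-binding protein of dendrites, at 0.63, Baiap2 at 0.61 and 2900079G21Rik at 0.61. The last is a noncoding RNA on the opposite strand within Arpp21, so its reads and those of Arpp21 cannot be told apart by strand. For Phactr1 the next were Arpp21 at 0.36, Pcsk2 at 0.32, Ptprd at 0.32 and Nrgn at 0.31. For Foxp1 they were Arpp21 at 0.45, Baiap2 at 0.41, Pcsk2 at 0.38 and Ptprd at 0.37.

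Within the glutamatergic nuclei the gene most like Arpp21 was R3hdm1. The correlation was 0.42 over 385 nuclei (rho 0.41), where the next gene, Calb1, encoding the calcium-binding calbindin, reached 0.27 and the 99th percentile over 5895 genes was 0.15. BC030499 and Kctd16 also reached 0.27, and Brinp3 0.25. The R3hdm1 value was 0.44 in set A, 0.29 in set B and 0.44 in set C, 0.42 after thinning and 0.37 in the 372 nuclei with a read of both genes. No stretch of 50 bases was shared between the annotated transcripts of the 2 genes, on either strand.

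R3hdm1 was itself the more abundant of the pair in reads, at 11.15 ± 1.78 in glutamatergic and 7.21 ± 3.32 in GABAergic nuclei, and was read in 98.7% of glutamatergic and 86.8% of GABAergic nuclei. Like Arpp21 it was lowest in the Foxp2 nuclei among the glutamatergic subclasses, at 10.04 ± 2.05, against 11.85 ± 0.96 in Rorb, 11.54 ± 0.92 in Cux2 and 11.004 ± 2.04 in unsplit nuclei. Within subclasses the correlation was 0.18 in Cux2, 0.23 in Rorb, 0.22 in Foxp2 and 0.47 in unsplit nuclei. In the unsplit nuclei it was 0.54 in set A and 0.04 in set B. In GABAergic nuclei it was −0.07. The relation of the 2 host genes of miR-128 was therefore uneven among the groups of nuclei, and these breakdowns were chosen after the value over all glutamatergic nuclei was seen.

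**Figure D4:**
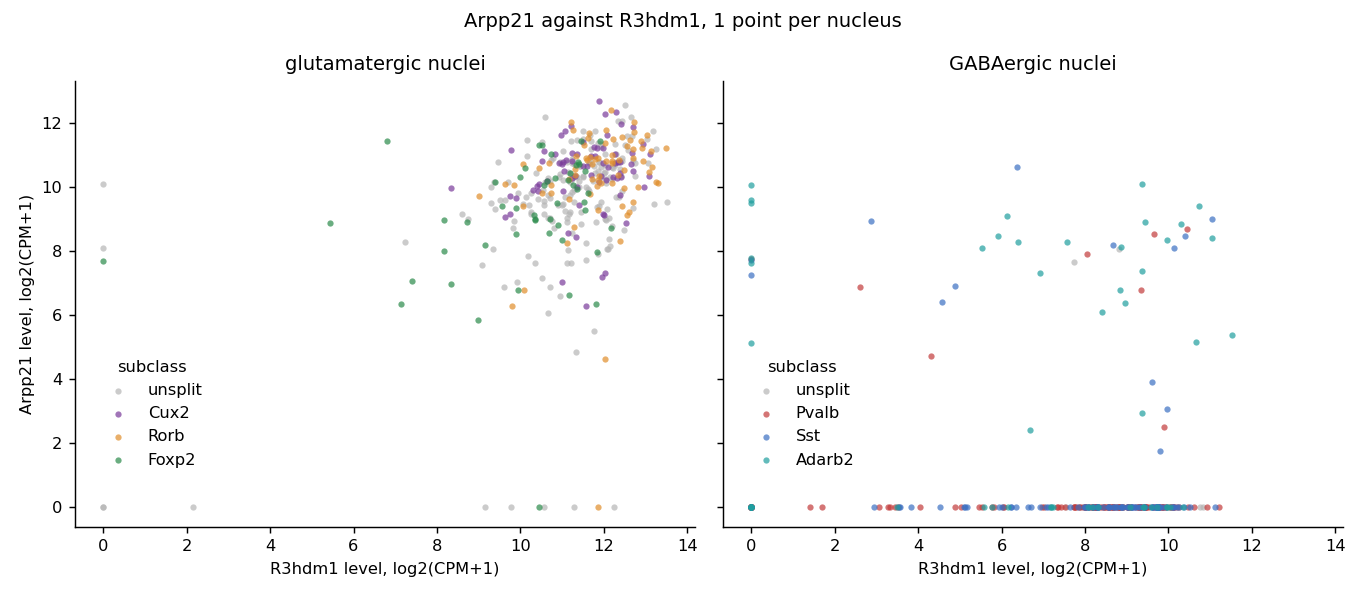
Level of Arpp21 (y axis) against R3hdm1 (x axis), both log2(CPM+1), in each glutamatergic nucleus (left panel) and GABAergic nucleus (right panel), coloured by subclass. The glutamatergic nuclei form a cloud that slopes upward (r = 0.42), with Foxp2 nuclei toward its lower left, while most GABAergic nuclei lie at 0 for Arpp21 over the whole range of R3hdm1 (r = −0.07).

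For Phactr1 and Foxp1 no gene stood as far apart in the glutamatergic nuclei. The highest for Phactr1 were Kcnj9, a G protein-gated potassium channel subunit, at 0.21, Wdr33 at 0.21, Oxr1 at 0.20, Hnrnph3 at 0.20 and Mcmbp at 0.20. Those for Foxp1 were Luzp1 at 0.24, Asap1 at 0.23, the potassium channel gene Kcna2 at 0.23, Bc1 at 0.23 and Marcks at 0.22. The 99th percentiles over genes were 0.14 for Phactr1 and 0.18 for Foxp1, so these weak values are given as a list only. For Kcna2, Bc1 and Marcks, r with Foxp1 was 0.12, 0.09 and 0.13 in set A, against 0.37, 0.38 and 0.33 in the other sets.

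In GABAergic nuclei the gene most like Arpp21 was Nfib, a transcription factor, at 0.32, followed by Nyap2 at 0.28, Plk2 at 0.25, Dock10 at 0.24 and Dlx6os1, a noncoding RNA of the Dlx5 and Dlx6 locus, at 0.24. Arpp21 had a read in only 50 of these 310 nuclei, 27 of them in the Adarb2 group. The gene most like Foxp1 was Eif4e3, a cap-binding protein, at 0.32, followed by Kat2a at 0.23, Rps10 at 0.22, Ehbp1 at 0.21 and Dvl1 at 0.21. Eif4e3 lies on the same strand of chromosome 6, 102 kb from Foxp1, and was read in 25.2% of GABAergic nuclei. Its r with Foxp1 was 0.31 in Pvalb, 0.30 in Sst and 0.34 in Adarb2 nuclei and 0.16 in glutamatergic nuclei. In the 48 GABAergic nuclei with a read of both it was −0.03, and these are too few to settle whether the levels were related. Over all GABAergic nuclei r was 0.34 in set A, 0.17 in set B and 0.44 in set C. In Pvalb nuclei it was 0.34 in set A and −0.06 in set B. An annotated gene on the same strand, Gm20696, covers all of Eif4e3 and the 5′ part of Foxp1 and has no row in the counts. For Phactr1 the highest were Ppp2r3a, a regulatory subunit of protein phosphatase 2A, at 0.25, Rpl9 at 0.24, and Atp5mpl and Kmt2d at 0.22 each.

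The closest relatives of the 3 genes did not share their pattern evenly. Of the FOXP family, Foxp3 had no read in any nucleus, Foxp4 was read in 10.9% of glutamatergic and 9.68% of GABAergic nuclei, and Foxp2, which helped to define the subclasses, in 14.03% of glutamatergic and 0.968% of GABAergic nuclei. None of these 3 was read in at least 20% of either class. Phactr3 ran against Phactr1, with 1.60 ± 2.81 in glutamatergic and 2.72 ± 3.38 in GABAergic nuclei, a difference of −1.12. It was highest in Pvalb nuclei, at 3.56 ± 3.54. Phactr2 was read in 4.16% of glutamatergic and 15.5% of GABAergic nuclei and Phactr4 in 2.60% of glutamatergic and 6.13% of GABAergic nuclei.

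Genes of the pathways around the 3 were then compared from fixed lists. Only genes with a read in at least 20% of either class could enter, and a gene can pass that filter through the class where it is high. Of all 6930 such genes 9.18% were higher in glutamatergic nuclei by over 1 and 12.9% lower, and the median difference was −0.19. Of the other ARPP and R3H genes, 5 of 5 were higher by over 1, with a median of 3.66. Arpp19, a phosphoprotein that inhibits protein phosphatase 2A once phosphorylated, averaged 8.24 ± 3.33 in glutamatergic and 3.92 ± 3.93 in GABAergic nuclei. R3hdm2 averaged 6.32 ± 3.17 in glutamatergic and 2.67 ± 3.27 in GABAergic nuclei. Ensa, the paralog of Arpp19, differed by 1.70, and R3hdm4 by 1.14.

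Of the actin and MRTF genes around Phactr1, 6 of 10 entered, of which 1 was higher and 1, Phactr3, lower by over 1. The higher gene was Mrtfb, an actin-regulated coactivator of serum response factor, at 6.52 ± 2.93 in glutamatergic and 2.95 ± 3.23 in GABAergic nuclei. Its relative Mrtfa differed by 0.34, and the actin genes Actb and Actg1 by 0.27 and −0.44. Of the protein phosphatase 1 genes, 7 of 10 entered. Ppp1r9a, the neuronal actin-binding scaffold neurabin, was higher by 2.41 and Ppp1cc, a catalytic subunit, lower by 1.79, at 2.02 ± 3.06 in glutamatergic and 3.80 ± 3.37 in GABAergic nuclei. The other catalytic subunits, Ppp1ca and Ppp1cb, differed by 0.62 and 0.29.

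Arpp21 is a target of protein kinase A, but the genes of that kinase were near level. Of 12 genes 10 entered, with a median difference of −0.03, and Prkar1a, a regulatory subunit, averaged 7.85 ± 3.02 in glutamatergic and 7.92 ± 2.81 in GABAergic nuclei. The gene higher by over 1 was Adcy2, an adenylyl cyclase, by 1.97, and the gene lower was the anchoring protein gene Akap7, at a difference of −1.21. Of the list of calmodulin, which binds Arpp21, and its other partners, all 11 genes entered, with 6 higher by over 1, none lower and a median of 1.76. Nrgn was higher by 4.67, Camk2a by 3.08 and Ppp3ca, the catalytic subunit of calcineurin, by 2.38. The calmodulin genes Calm2 and Calm3 differed by 0.75 and 0.24.

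Of the genes listed as partners of Foxp1, 6 of 8 entered and 2 were higher by over 1. Among them was the cortical transcription factor Tbr1, at 2.34 ± 3.38 in glutamatergic and 0.15 ± 1.06 in GABAergic nuclei. The corepressor and deacetylase genes Ctbp1, Hdac1 and Hdac2 differed by −0.48, −0.61 and −0.57. Of the 19 genes of spiny projection neurons, 4 entered. Meis2 was higher in glutamatergic nuclei by 2.51 and Tac1 lower, at a difference of −2.57, while Pde10a differed by 0.99 and Bcl11b by −0.82. Ppp1r1b, which encodes the dopamine-regulated phosphatase inhibitor DARPP-32, was read in 16.6% of glutamatergic and 0.323% of GABAergic nuclei. Of the listed genes Pde10a was read in 78.4% of glutamatergic nuclei and Meis2 in 39.2%, against 97.4% for Arpp21, 87.8% for Phactr1 and 81.3% for Foxp1.

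**Figure D5:**
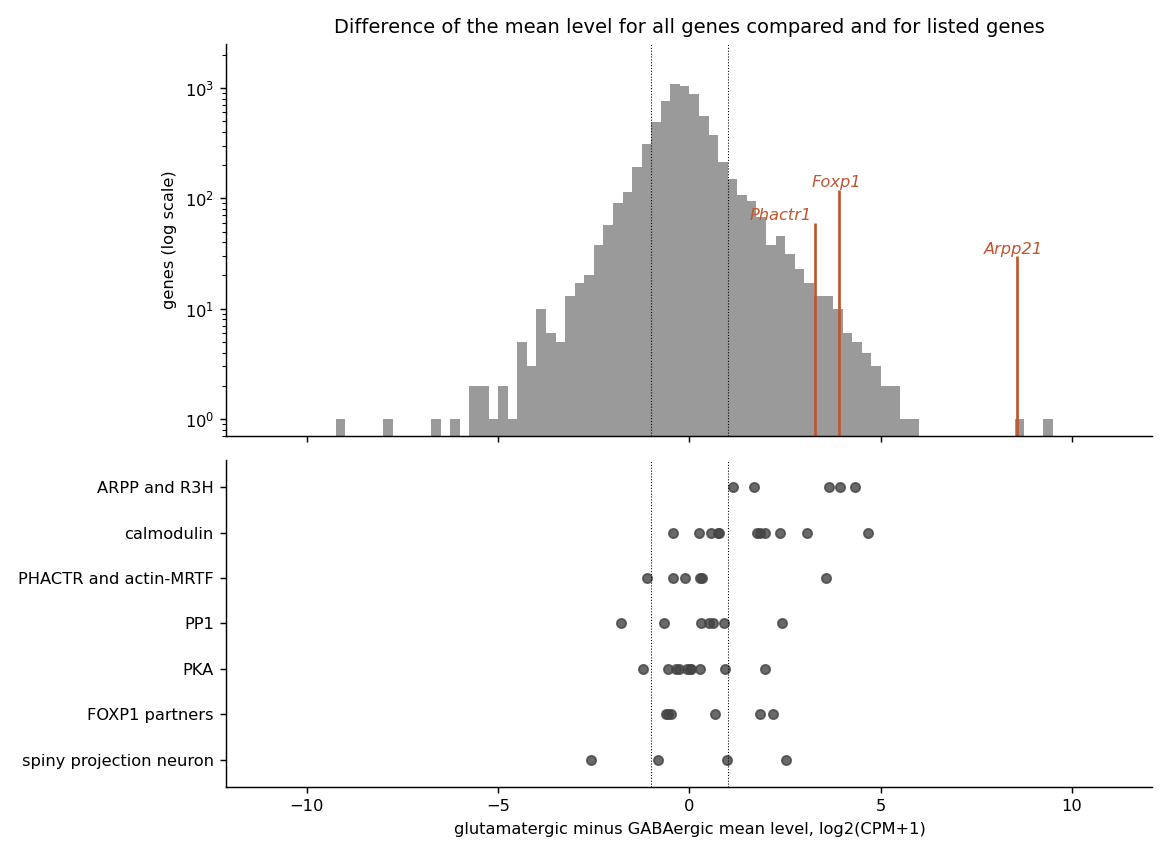
Top, number of genes (y axis, log scale) by glutamatergic minus GABAergic mean log2(CPM+1) (x axis) over 6930 genes, with Arpp21 (8.56), Foxp1 (3.91) and Phactr1 (3.29) marked. Bottom, the same difference for the other genes of each list (rows, 1 point per gene); dotted lines mark −1 and 1. The 5 ARPP and R3H genes all lie right of 1, and the protein kinase A genes lie around 0.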

How the data were processed

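The deposited table holds raw read counts per gene and nucleus, made by the authors from SMART-Seq v4 cDNA and Nextera XT libraries, per the labels. STAR 2.7.2a and mm10 are named in the submitters' processing notes. The counter, its annotation, strand setting and treatment of introns are not stated in these sources, and intron treatment could change the level of genes this long. There are no molecular identifiers, so PCR copies count separately. Of 2501 columns, 797 matched the labels by library name and 1704 were not used here. Index pairs were shared by 125 libraries of sets A and B and by 80 of A and C.

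Nuclei under 50000 reads (9) or 1000 genes (8) were left out, 16 in all. Counts were scaled to CPM over all gene reads, and means use log2(CPM+1). The size of a difference depends on this scale. For the 3 genes an offset of 10 gave smaller class differences, at 5.84 for Arpp21, 2.26 for Phactr1 and 2.34 for Foxp1. The log2 ratio of mean CPM was also smaller, at 4.82, 1.54 and 2.68 in the same order. Of 32285 gene rows 32158 had a symbol, and the rest held 0.0931% of reads. Clopper-Pearson and Poisson intervals are at 95%. Positions are from GENCODE M21 and sequences from RefSeq. No doublet caller was run. Calculations used Python 3.11.15, numpy 2.4.6, scipy 1.17.1 and pandas 2.3.3 and were tested on simulated data.

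The members and gene lists were chosen with earlier results of these data known. Named genes are the 3 members, the listed genes and, per member, the 5 genes with the highest r over all, glutamatergic and GABAergic nuclei; a few of these genes are not reported here. Added after seeing the data were the split of Adarb2 nuclei and the breakdowns of the R3hdm1 and Eif4e3 correlations.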

Additional observations from a re-analysis of the deposited data

How the results depend on the processing

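The glutamatergic minus GABAergic difference stayed positive for each gene under all 11 alternatives: 4.82 to 9.20 for Arpp21, 1.54 to 3.38 for Phactr1 and 2.34 to 4.11 for Foxp1, where those with no filter, other class limits, thinning, no mitochondrial genes, a library set left out or set A alone moved by less than the spread of the vector labels. A pseudocount of 10 gave 5.84 for Arpp21 and 2.34 for Foxp1, and the log2 ratio of mean CPM gave 4.82 for Arpp21, 1.54 for Phactr1 and 2.68 for Foxp1. Small subclass differences changed sign: Phactr1 in Cux2 nuclei to −0.0020 at a class limit of 1 CPM, Foxp1 in Cux2 nuclei to 0.0927 without the filter on nuclei, 0.0738 without set C and 0.0947 in set A, Foxp1 in Foxp2 nuclei to 0.0830 at a limit of 50 CPM, 0.0282 without set C and 0.0253 in set A, and Foxp1 in Pvalb nuclei to 0.0276 in set A. Without set A, Foxp1 became 0.54 in Sst and −0.22 in Adarb2 nuclei. As ratios of mean CPM, Pvalb nuclei differed by −2.86 for Arpp21 and 0.31 for Phactr1. Other subclass differences crossed the limit of 1: Foxp1 in Rorb nuclei (0.84 without set B, 0.94 in set A, 0.90 with a pseudocount of 10, 0.72 as a ratio), Phactr1 in Sst nuclei (−0.99 with a pseudocount of 10, −0.68 as a ratio) and Pvalb nuclei (0.92 with a pseudocount of 10), Arpp21 in Pvalb nuclei (−0.90 without set A, −0.82 with a pseudocount of 10) and Foxp2 nuclei (−1.13 without set A), Phactr1 in Adarb2 nuclei (1.86 without set A) and Rorb nuclei (1.08 with exactly 1 marker), and Foxp1 in Adarb2 nuclei (1.05 without set B). In nuclei with a read of both genes, r over all nuclei was 0.12 for Arpp21 with Phactr1, 0.0711 for Arpp21 with Foxp1 and 0.12 for Phactr1 with Foxp1, and 0.31 for Arpp21 with Phactr1 in 25 GABAergic nuclei. In set A alone the span of vector label means was 3.18 in glutamatergic and 2.04 in GABAergic nuclei for Phactr1, and 3.92 in glutamatergic nuclei for Foxp1. A pseudocount of 10 left 309 genes higher and 308 lower by over 1, against 636 and 894, and 1 listed gene lower, against 4. The cause was not tested. No paired analysis was possible because the numbers in the labels only count nuclei within a vector label and the results come from no test. The number of nuclei limits what a count of 0 shows: in 17 nuclei it allows, by the limit of 3 nuclei, a share of up to 17.6%.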
